A study of Homo sapiens with 7 samples.

Results

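The nucleoporins and nuclear transport receptors described here are the genes whose symbols begin with NUP, KPNA, KPNB, XPO, IPO or TNPO followed by the family's number (or by T after XPO). The rule uses names alone and found 46 of the 19304 genes named on the array, represented by 58 probes. Expression was measured in MCF-10A, a non-transformed human mammary epithelial cell line, on 1-colour Illumina bead arrays. The 4 shBrit1 arrays came from cells stably carrying a lentiviral shRNA against Brit1, a DNA damage response gene, and the 3 shControl arrays came from cells with a scrambled shRNA. Both kinds of cells were selected lines without further treatment, plated at 200000 cells per 10 cm dish and collected at 48 h, and the submitters call the replicates biological. The labels name a single shRNA against Brit1, so effects of that hairpin and of Brit1 loss cannot be told apart. Group names rest on the labels, since the targeted gene was not analysed here.

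Traffic between nucleus and cytoplasm passes through nuclear pore complexes, ring-shaped assemblies of nucleoporins set into the nuclear envelope. Scaffold nucleoporins of the Y complex and the inner ring hold the ring in the membrane. Others carry phenylalanine-glycine repeats that fill the channel. Importins bind cargo in the cytoplasm and release it in the nucleus when they meet the GTPase Ran in its GTP form, and exportins load cargo together with that form and release it outside. Pores break down at mitosis and are rebuilt in each daughter nucleus, and new pores are also inserted as the nucleus grows before division.

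The tested probes numbered 17967, those brighter than the negative controls (detection p-value under 0.05) on 3 arrays or more, and 16537 to 17343 probes passed that limit on an array. Levels are given as background-corrected, quantile-normalized log2 intensities ("log2 level"), on which a difference of 1 is 2-fold, and levels of different genes are not comparable because each has its own probe. Replicate 3 of shControl stood apart from the other controls. Its log2 levels differed from those of replicates 1 and 2 with SDs of 0.531 and 0.510 across the tested probes, against 0.192 between replicates 1 and 2 and 0.161 to 0.228 among the shBrit1 arrays. Its sample code also has another form than theirs, with a meaning that the labels do not state. Results for pore and transport genes that rest on it are given with and without it. The marker counts and sums below include it. The 6 markers of basal-type mammary epithelial cells on the array were KRT5, KRT14, CDH1, LAMB3, ITGB4 and EPCAM. All were detected on all 7 arrays, with a summed signal of 23290 to 28250 in shBrit1 and 30760 to 56370 in shControl. KRT6A, KRT17 and TP63 were also chosen as basal markers but had no named probe. KRT5, KRT14 and EPCAM were lower in shBrit1, and ITGB4 was higher. On shControl replicate 3 KRT14 was at 14.52, against 12.82 and 12.81 on the other controls. EPCAM was at 10.21 there, within its shBrit1 range of 10.15 to 10.39, against 11.36 and 11.38 on the other controls. Of 6 fibroblast markers 3 were detected on no array and 2 were higher in shBrit1, with sums of 675 to 724 in shBrit1 and 490 to 527 in shControl. Of 5 luminal markers KRT19 and GATA3 were higher and 0 lower, while KRT8, KRT18 and ESR1 were not called. The luminal sums were 4811 to 5403 in shBrit1 and 2162 to 6135 in shControl. On shControl replicate 3 KRT8 was at 10.57, against 12.22 and 12.07 on the other controls and 11.97 to 12.09 in shBrit1. KRT18 was at 6.67 there, against 8.82 and 8.57 on the other controls and 7.59 to 8.14 in shBrit1. Of 3 endothelial markers 2 were detected on no array and 0 were called. Of 5 immune markers CD14 and CD68 were higher in shBrit1, with sums of 2160 to 2342 in shBrit1 and 767 to 927 in shControl. CD68 alone had a signal of 1555 to 1721 in shBrit1 and 446 to 555 in shControl. CD3E was detected on no array and PTPRC on 1 shControl array. CD79A was detected on 3 shBrit1 arrays and 0 shControl arrays and was not called. Beside these marker calls, 30.1% of all genes tested were lower in shBrit1 and 29.5% higher, by the calling rule given below. The part of these markers in the results below was not tested.

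The nuclear pore and transport genes fell widely in shBrit1 cells. Of the 44 genes with a tested probe, 36 were lower and 0 higher in shBrit1 (limma, Benjamini-Hochberg adjusted p under 0.05, two-sided), while 8 were not called. Among all 12372 genes tested, 30.1% were lower and 29.5% were higher by the same rule. The median log2 difference was -0.76 over the 44 genes, against -0.01 over all genes. A fall of at least 2-fold was called in 12 of them, and in 9.69% of all genes. That count depended on the scaling, with 9 genes under no background correction or the authors' deposited log2 values and 21 under median scaling. In 35 genes every shBrit1 array lay below every shControl array, and in 0 the groups were separated upwards. Over all genes 31.2% were separated downwards and 30.6% upwards. Counted as probes, 40 of 51 were lower and 0 higher, against 26.9% lower and 26.9% higher among all tested probes. Restricting the comparison to the 3415 genes whose mean log2 level lay between the quartiles of this family (8.37 and 10.50) gave 33.3% lower and 32.7% higher. The 42 genes detected on all 7 arrays held 35 of the calls, also when only probes of that kind were tested.

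**Figure D1:**
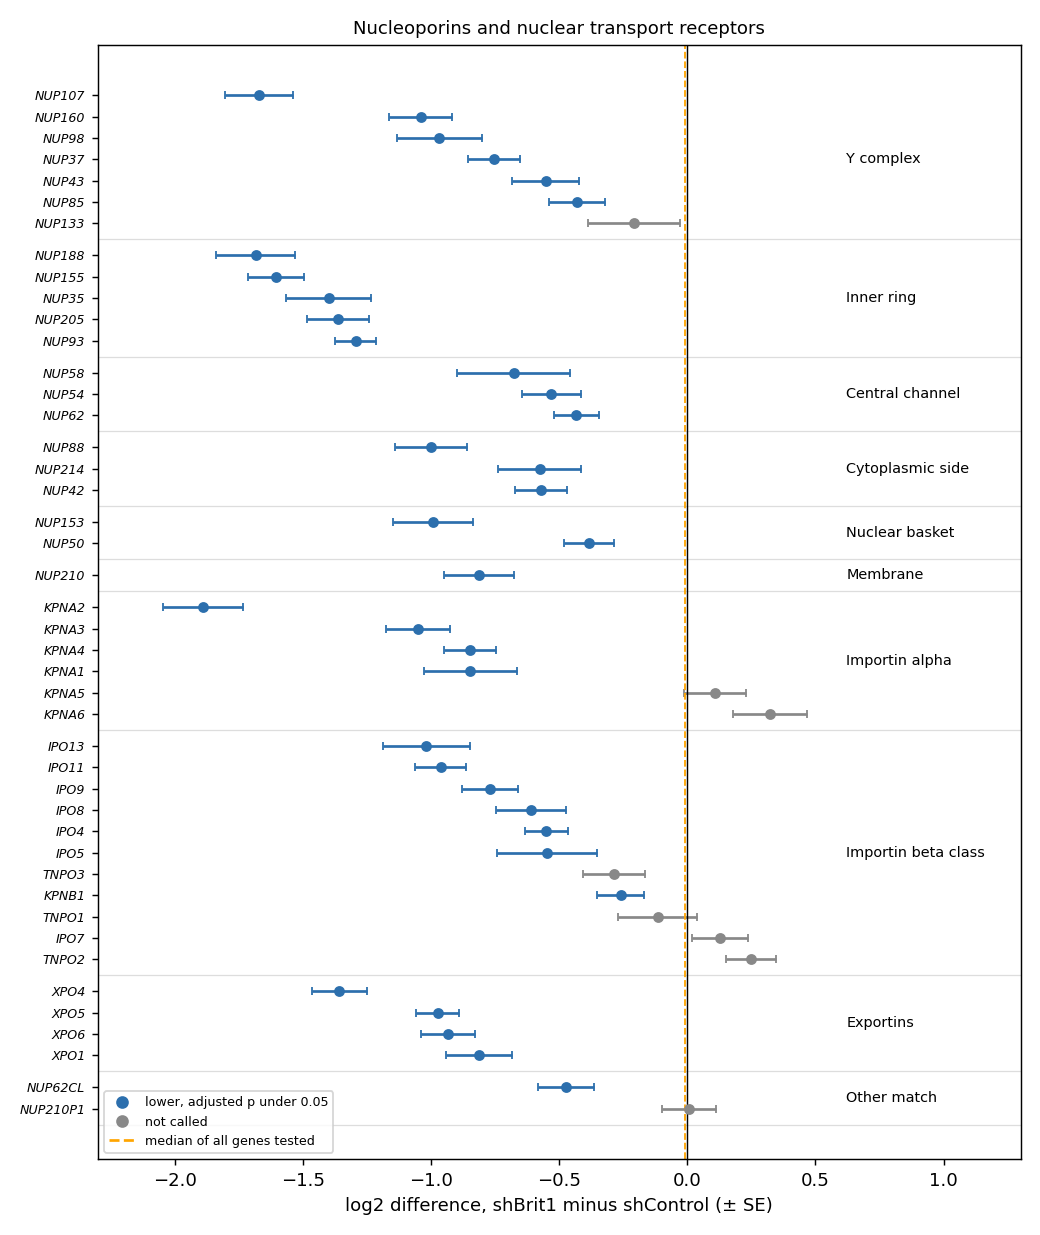
Log2 difference between shBrit1 and shControl (x axis, ± SE) for the 44 tested genes, one row each, grouped by role in the pore or in transport. Blue points are the 36 genes lower at an adjusted p under 0.05, grey points the 8 genes not called, and the dashed line is the median of all genes at -0.01. KPNA2 lies farthest to the left at -1.89, and the 5 inner ring genes lie between -1.68 and -1.29.

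Leaving out shControl replicate 3 gave 37 genes lower and 2 higher, with a median of -0.79, and the shares over all genes were then 34.9% lower and 34.4% higher. With median scaling in place of quantile normalization the median of all genes moved to -0.15, and 38 of the family's genes were lower with a median of -0.94, against 36.2% of all genes lower and 21.2% higher under that scaling. On the shControl replicate 3 array the median of the 44 genes differed from the mean of the other controls by -0.03. On it 7 of 7 Y complex genes lay below the other controls and 5 of 6 importin alpha genes above them. Of the latter, KPNA4 and KPNA5 were above by only 0.06 and 0.03. KPNA2 was above by its brighter probe (0.51) and below by its second (-1.29).

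**Figure D2:**
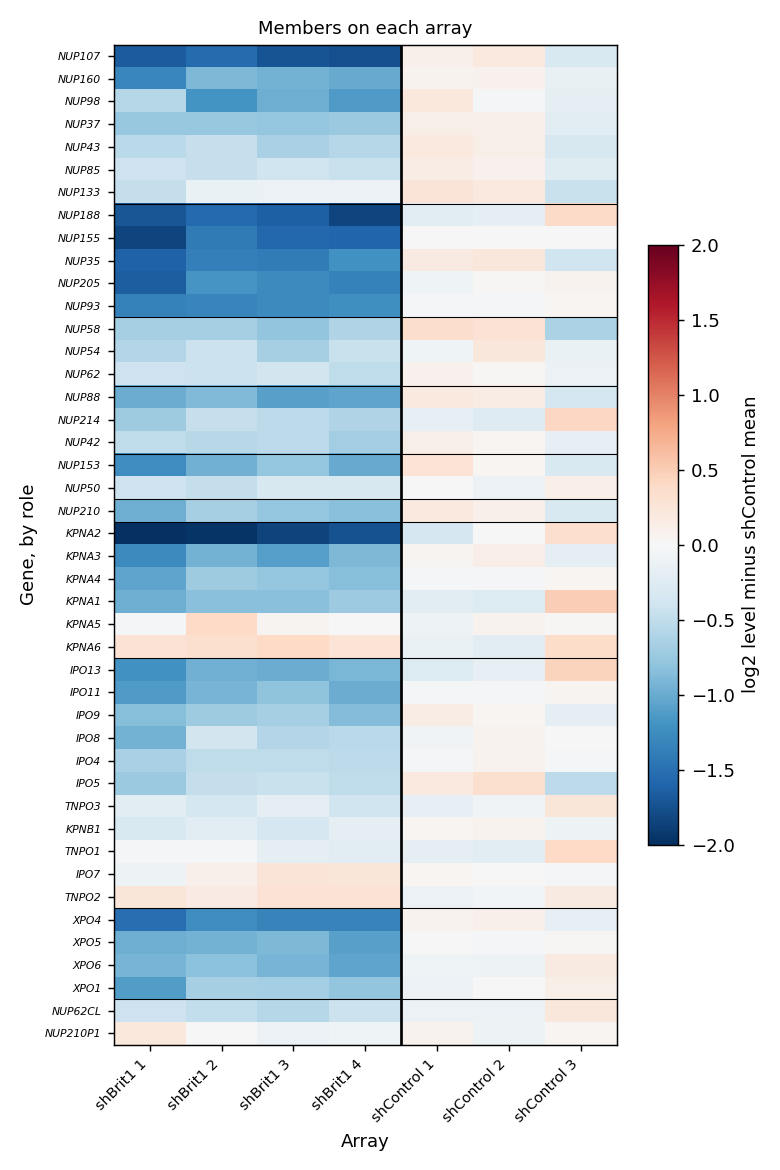
Log2 level of each tested gene (rows, by role) on each array (columns, 4 shBrit1 left of 3 shControl), minus the mean of the shControl arrays, blue for lower and red for higher. The shBrit1 columns are blue in nearly all rows, and the shControl replicate 3 column is pale blue for the Y complex and pale red for several importins.

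Promoter sequences were available for 40 of the 46 genes from RefSeq (GRCh38.p14), each spanning 250 bases before to 50 bases after the annotated start. The 5 below belong to the importin alpha gene with the greatest fall in the family (KPNA2), a Y complex gene (NUP107), 2 inner ring genes (NUP155 and NUP188) and an importin alpha gene that was not called (KPNA6). They are given from 5′ to 3′ on the gene's own strand. Capitals mark matches, on either strand, to letters bound by factors of growth and division: TTTCGCGC or TTTGGCGC (E2F), the NRF1 palindrome (the run of capitals in NUP107 that lies nearest to its start), CCGGAAGT (ETS factors), CACGTG (E-box), CCAAT (NF-Y) and TTTGAA (the cell cycle homology region, CHR). The last 2 patterns were added after the sequences had been read.
KPNA2, chr17:68035485-68035784, plus strand: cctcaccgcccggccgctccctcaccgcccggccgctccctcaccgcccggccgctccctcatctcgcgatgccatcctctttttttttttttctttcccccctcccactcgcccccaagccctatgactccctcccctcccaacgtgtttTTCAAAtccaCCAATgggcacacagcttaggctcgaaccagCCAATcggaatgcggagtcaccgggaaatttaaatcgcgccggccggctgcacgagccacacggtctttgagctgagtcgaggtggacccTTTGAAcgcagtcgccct
NUP107, chr12:68686728-68687027, plus strand: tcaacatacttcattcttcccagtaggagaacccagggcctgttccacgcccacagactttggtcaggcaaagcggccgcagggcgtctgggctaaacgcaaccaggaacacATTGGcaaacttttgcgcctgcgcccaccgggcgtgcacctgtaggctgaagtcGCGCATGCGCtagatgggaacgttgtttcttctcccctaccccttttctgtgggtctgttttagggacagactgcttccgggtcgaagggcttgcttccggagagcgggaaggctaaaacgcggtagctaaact
NUP155, chr5:37371057-37371356, minus strand: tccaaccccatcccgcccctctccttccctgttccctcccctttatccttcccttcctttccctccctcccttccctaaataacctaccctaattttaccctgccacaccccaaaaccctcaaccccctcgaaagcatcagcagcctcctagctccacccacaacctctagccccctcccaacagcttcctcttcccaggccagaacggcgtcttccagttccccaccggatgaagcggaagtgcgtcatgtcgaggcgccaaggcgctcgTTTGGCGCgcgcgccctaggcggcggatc
NUP188, chr9:128947449-128947748, plus strand: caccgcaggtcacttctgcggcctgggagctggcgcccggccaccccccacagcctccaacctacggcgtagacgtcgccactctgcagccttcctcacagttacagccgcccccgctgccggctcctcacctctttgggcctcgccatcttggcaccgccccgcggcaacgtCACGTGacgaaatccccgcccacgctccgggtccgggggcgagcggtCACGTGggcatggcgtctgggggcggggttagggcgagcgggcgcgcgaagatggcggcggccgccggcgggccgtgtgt
KPNA6, chr1:32107806-32108105, plus strand: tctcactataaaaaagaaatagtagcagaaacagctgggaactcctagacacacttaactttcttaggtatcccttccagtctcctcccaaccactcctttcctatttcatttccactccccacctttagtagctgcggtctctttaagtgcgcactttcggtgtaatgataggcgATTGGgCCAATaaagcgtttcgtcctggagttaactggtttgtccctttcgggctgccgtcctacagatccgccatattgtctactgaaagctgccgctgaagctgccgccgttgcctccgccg
In KPNA2 the letters CCAAT stood 89 and 58 bases before the start, and CHR letters stood 99 bases before and 32 bases after it. The NUP107 promoter held the NRF1 letters 84 bases before the start and CCAAT on the other strand 138 bases before it. NUP155 had E2F letters 21 bases after its start, and NUP188 had E-box letters 77 and 30 bases before its start. In KPNA6 only CCAAT was matched, 74 and 68 bases before the start. IPO7, also not called and not shown, held E2F letters 2 bases after its start. It also held E-box letters 138 bases and CHR letters 182 bases before the start. Every promoter described here held a match, but others held none. No pattern was matched in IPO8, IPO11, IPO13, KPNA1, NUP160, NUP210 and XPO5, all called lower. The same was true of NUP133, TNPO1 and TNPO2, which were not called. Over the family, E2F letters were in 2 of 40 promoters, against 1.12% of all 27305 promoters of this length and 1.53% of the 15843 from protein-coding genes. NRF1 letters were also in 2 of 40, against 1.28% of all and 1.61% of coding promoters. The ETS letters were in 6 of 40 (15%), against 4.24% of all and 5.85% of coding promoters. The E-box was in 5 of 40 (12.5%), against 7.19% and 8.45%. CCAAT was in 18 of 40 (45%), against 35.4% and 35.8%, and CHR letters were in 9 of 40 (22.5%), against 15.9% and 12.7%. These promoters included 33 of genes called lower and 6 of genes not called, and NUP210L had no tested probe. E2F letters were in 1 lower gene and 1 not called, NRF1 letters in 2 and 0, and ETS letters in 5 and 1. The E-box was in 4 and 1, CCAAT in 16 and 1, and CHR letters in 8 and 1. A match is no proof of binding, and these shares were not tested.

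The inner ring, the scaffold layer that anchors the channel to the pore membrane, fell as a whole. All 5 of its genes on the array were lower by at least 2-fold, with a median log2 difference of -1.40, and each of the 5 stayed lower by at least 2-fold under each of the 17 alternative settings. NUP93, which ties the channel nucleoporins to the ring, had log2 levels of 10.51, 10.54, 10.59 and 10.64 in shBrit1, against 11.85, 11.84 and 11.91 in shControl. The 4 shBrit1 arrays lay close together and far below the controls, a 2.45-fold fall (log2 difference -1.29, SE 0.08, adjusted p = 3.11e-06). NUP155, a large scaffold protein that also contacts the membrane, stood at 8.11, 8.53, 8.38 and 8.36 in shBrit1, against 9.96, 9.94 and 9.95 in shControl. Its controls were nearly equal and none of the shBrit1 arrays came near them (3.04-fold lower, log2 difference -1.61, SE 0.11, adjusted p = 4.83e-06). NUP205, one of the giant scaffold proteins of the layer, was at 9.63, 10.09, 10.00 and 9.92 in shBrit1, against 11.18, 11.29 and 11.34 in shControl. It fell 2.57-fold (adjusted p = 2.16e-05), with shBrit1 replicate 1 the lowest array. NUP188, the other giant scaffold protein, was 3.21-fold lower (adjusted p = 2.55e-05), with levels of 7.50 to 7.78 in shBrit1 and 9.12 to 9.72 in shControl, where replicate 3 was the highest. NUP35, a membrane-binding member of the layer, was 2.64-fold lower, with 6.92 to 7.32 in shBrit1 and 8.13 to 8.77 in shControl, where replicate 3 was the lowest. A second NUP35 probe gave a log2 difference of -1.38.

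The Y complex forms the outer rings on both faces of the pore and is the first scaffold to gather on chromosomes after mitosis. Of its 7 genes under the naming rule 6 were lower, with a median log2 difference of -0.75, and log2 differences ranged from -1.67 to -0.21, against -1.68 to -1.29 in the inner ring. NUP107, a stem component required for pore assembly, was at 9.28, 9.41, 9.22 and 9.19 in shBrit1, against 11.05, 11.15 and 10.64 in shControl. Even the lowest control, replicate 3, lay well above every shBrit1 array (3.18-fold lower, log2 difference -1.67, SE 0.13, adjusted p = 1.07e-05). NUP160, in an arm of the Y, was at 8.77, 9.18, 9.13 and 9.07 in shBrit1, against 10.14, 10.16 and 9.92 in shControl. It fell 2.06-fold (log2 difference -1.04, SE 0.12, adjusted p = 0.000116). NUP37, a propeller protein bound to NUP160, was at 11.08, 11.08, 11.07 and 11.09 in shBrit1, against 11.96, 11.93 and 11.62 in shControl. Its shBrit1 values were almost identical and its fall was 1.69-fold (adjusted p = 0.00027). NUP98, whose transcript encodes both a repeat nucleoporin and the Y complex protein Nup96, was dim, with 5.50 to 6.12 in shBrit1 and 6.50 to 6.90 in shControl. It fell 1.96-fold (adjusted p = 0.00102), and its second probe was lower too (log2 difference -0.56). NUP43, at a stem junction of the Y, was at 7.31 to 7.49 in shBrit1 and 7.64 to 8.15 in shControl. It fell 1.47-fold by the probe with the higher mean (adjusted p = 0.00637), but its other tested probe was not called (log2 difference -0.22, adjusted p = 0.249). NUP85, of the short arm, was at 10.07 to 10.13 in shBrit1 and 10.29 to 10.68 in shControl, a 1.35-fold fall (adjusted p = 0.00874). NUP133, which sits at the tip of the stem and senses membrane curvature, was not called on all arrays. It was at 9.22, 9.56, 9.57 and 9.58 in shBrit1, against 9.94, 9.88 and 9.25 in shControl (log2 difference -0.21, SE 0.18, adjusted p = 0.359). The groups overlapped because shControl replicate 3 lay below 3 of the 4 shBrit1 arrays, while shBrit1 replicate 1 lay below every control. Without shControl replicate 3 NUP133 was called lower, by 1.34-fold (adjusted p = 0.00692).

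All 3 genes of the central channel were lower, with a median log2 difference of -0.53. NUP62, the repeat protein at the centre of the channel, was at 12.44, 12.41, 12.48 and 12.34 in shBrit1, against 12.94, 12.87 and 12.74 in shControl, a 1.35-fold fall with no overlap (adjusted p = 0.00299). NUP54, a partner of NUP62 in the channel, was at 9.05, 9.21, 8.98 and 9.20 in shBrit1, against 9.55, 9.87 and 9.51 in shControl (1.44-fold lower, adjusted p = 0.00436). NUP58, the remaining channel partner, was dim. It was detected on 2 of the 4 shBrit1 arrays and all 3 shControl arrays, and its level on shControl replicate 3 (5.12) lay within the shBrit1 range of 4.96 to 5.16, while the other controls were at 6.11 and 6.04. Its fall was 1.60-fold on all arrays (adjusted p = 0.0274), and without shControl replicate 3 it was 2.00-fold lower (adjusted p = 1.92e-06).

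On the cytoplasmic face all 3 genes were lower, with a median log2 difference of -0.58. NUP88, which anchors the export platform of the pore, was at 10.24, 10.36, 10.15 and 10.18 in shBrit1, against 11.43, 11.39 and 10.88 in shControl. It fell 2.00-fold (SE 0.14 on the log2 scale, adjusted p = 0.00034). NUP214, the repeat protein of that platform and a docking site for the exportin XPO1, was at 8.48, 8.74, 8.67 and 8.59 in shBrit1, against 9.04, 8.94 and 9.62 in shControl. It fell 1.49-fold (adjusted p = 0.0145), and without the high control replicate 3 its fall was 1.29-fold (adjusted p = 0.006). NUP42, which helps to release exported messenger RNA, was at 8.78, 8.75, 8.76 and 8.60 in shBrit1, against 9.41, 9.34 and 9.13 in shControl (1.48-fold lower, adjusted p = 0.00125).

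The nuclear basket is the filamentous structure on the nucleoplasmic face, and both of its genes under the rule fell. NUP153, which roots the basket in the pore, was at 7.86, 8.14, 8.32 and 8.09 in shBrit1, against 9.36, 9.13 and 8.79 in shControl (1.99-fold lower, adjusted p = 0.000627). NUP50, a mobile factor that helps importin alpha to release cargo, was at 8.76, 8.69, 8.86 and 8.85 in shBrit1, against 9.16, 9.05 and 9.31 in shControl. Its fall was 1.31-fold (adjusted p = 0.00873) by the brighter probe, and a second, dim probe was not called (log2 difference -0.09). NUP210, a glycoprotein that spans the pore membrane, was at 6.25, 6.56, 6.46 and 6.39 in shBrit1, against 7.42, 7.34 and 6.93 in shControl (1.76-fold lower, adjusted p = 0.000906).

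**Figure D3:**
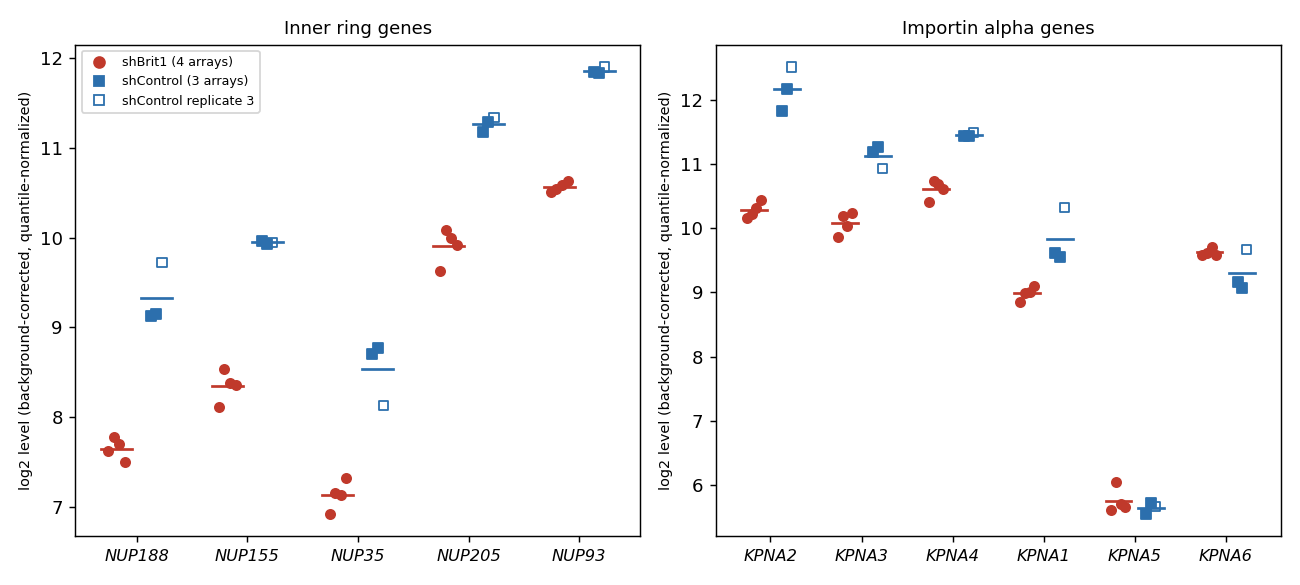
Log2 level (y axis) of the inner ring genes and of the importin alpha genes on each array, with 4 shBrit1 arrays as red circles, 3 shControl arrays as blue squares (replicate 3 open) and the group mean as a bar. Heights compare arrays within a gene, not genes with each other. The groups are apart for all 5 inner ring genes and 4 importin alpha genes, and they overlap for KPNA5 and KPNA6.

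Importin alpha proteins are the adaptors that read classical nuclear localization signals and hand the cargo to importin beta, and here the paralogs parted. Of 6 genes 4 fell and 2 were not called. KPNA2, the adaptor best known from dividing cells, was at 10.17, 10.22, 10.32 and 10.44 in shBrit1, against 11.84, 12.18 and 12.52 in shControl. All shBrit1 arrays lay more than 1 log2 unit below the lowest control. Its 3.71-fold fall (log2 difference -1.89, SE 0.16, adjusted p = 1.36e-05) was the largest in the family on all arrays, and a second probe gave a log2 difference of -1.96 (SE 0.29). Without shControl replicate 3 KPNA2 was 3.31-fold lower by the brighter probe, and NUP107 then had the larger fall. On the second KPNA2 probe that array was the low control instead, at 9.75 against 11.06 and 11.02 on the other controls. KPNA3 and KPNA4, close relatives that form a subfamily, fell together. KPNA3 was at 9.86, 10.19, 10.04 and 10.24 in shBrit1, against 11.19, 11.27 and 10.94 in shControl (2.07-fold lower, adjusted p = 0.000124). KPNA4 was at 10.41, 10.74, 10.69 and 10.61 in shBrit1, against 11.44, 11.44 and 11.50 in shControl (1.80-fold lower, adjusted p = 0.000128). Both pairs of groups were clearly apart.

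KPNA1, KPNA5 and KPNA6 make up another importin alpha subfamily and differed among themselves. KPNA1 was at 8.85 to 9.10 in shBrit1 and at 9.61, 9.56 and 10.33 in shControl. It fell 1.80-fold on all arrays (adjusted p = 0.00365) and 1.51-fold without the high control replicate 3. KPNA6 was at 9.59, 9.62, 9.71 and 9.58 in shBrit1, against 9.16, 9.07 and 9.67 in shControl. Only shControl replicate 3 reached the shBrit1 range, and the log2 difference of 0.32 (SE 0.14) was not called (adjusted p = 0.0885). Without that array KPNA6 was called 1.42-fold higher (adjusted p = 0.00032). KPNA5, a dim probe, was at 5.61 to 6.05 in shBrit1 and 5.55 to 5.72 in shControl (log2 difference 0.11, SE 0.12, adjusted p = 0.49).

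The importin beta class carries cargo through the channel, either with an importin alpha adaptor or by itself. Of its 11 genes 7 were lower and 4 were not called, with a median log2 difference of -0.55. IPO11, an import receptor for certain ubiquitin-conjugating enzymes, was at 8.81, 9.01, 9.14 and 8.95 in shBrit1, against 9.92, 9.90 and 10.00 in shControl (1.95-fold lower, log2 difference -0.96, SE 0.10, adjusted p = 5.39e-05). IPO9, which carries histones and actin, was at 7.97, 8.10, 8.16 and 7.96 in shBrit1, against 8.96, 8.86 and 8.63 in shControl (1.71-fold lower, adjusted p = 0.000321). IPO4, an importer of histones and ribosomal proteins, was at 9.76, 9.90, 9.90 and 9.89 in shBrit1, against 10.38, 10.48 and 10.38 in shControl (1.46-fold lower, adjusted p = 0.000569). In none of these receptors did the groups overlap. IPO13, a receptor that works in both directions, averaged 7.18 ± 0.13 in shBrit1 (SD, n = 4) and 8.20 ± 0.38 in shControl (SD, n = 3), with no overlap (2.03-fold lower in limma, adjusted p = 0.00092). IPO8, a close relative of IPO7, was at 6.65 to 7.23 in shBrit1 and 7.53 to 7.67 in shControl (1.53-fold lower, adjusted p = 0.00483).

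KPNB1, importin beta itself, fell by the smallest amount of any gene called. Its probe is among the brightest of the family, with 12.65, 12.74, 12.61 and 12.76 in shBrit1, against 12.98, 13.03 and 12.84 in shControl. The 1.20-fold fall was just past the threshold (adjusted p = 0.0363). Leaving out single arrays other than shControl replicate 3 ended the call, with adjusted p-values of 0.0534 to 0.124 in limma. IPO5, an importer of ribosomal proteins, was also near the threshold (1.46-fold lower, adjusted p = 0.0405), with shControl replicate 3 (7.82) inside the shBrit1 range of 7.60 to 7.90 and the other controls at 8.55 and 8.68. It was 1.74-fold lower without that array (adjusted p = 3.92e-05).

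The transportins, which import RNA-binding proteins, were not called on all arrays. TNPO1 was at 10.75, 10.73, 10.60 and 10.55 in shBrit1, against 10.59, 10.55 and 11.17 in shControl (log2 difference -0.12, SE 0.16, adjusted p = 0.567). Its probes disagreed, since a dim one was called lower (log2 difference -0.64, SE 0.09) and another was at -0.00. TNPO2, a close relative of TNPO1, was at 12.03, 11.95, 12.07 and 12.08 in shBrit1, against 11.66, 11.73 and 11.96 in shControl (log2 difference 0.25, SE 0.10, adjusted p = 0.0595). Without shControl replicate 3 it was called 1.27-fold higher (adjusted p = 0.00431), and with median scaling its log2 difference was -0.06. TNPO3, which imports serine-arginine splicing factors, was at 9.73, 9.59, 9.76 and 9.55 in shBrit1, against 9.77, 9.87 and 10.19 in shControl (log2 difference -0.29, SE 0.12, adjusted p = 0.0714). Its groups did not overlap, although the highest shBrit1 and the lowest control arrays nearly met. IPO7, an importer of ribosomal proteins, had 8.39 to 8.76 in shBrit1 and 8.46 to 8.53 in shControl (log2 difference 0.13, SE 0.11, adjusted p = 0.356).

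**Figure D4:**
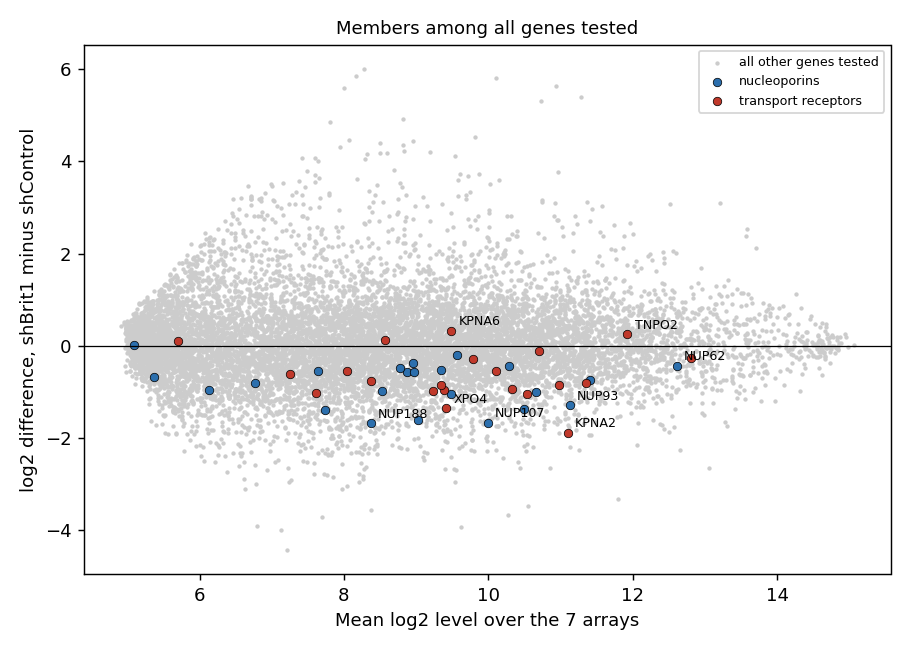
Log2 difference between shBrit1 and shControl (y axis) against the mean log2 level over the 7 arrays (x axis) for all genes tested (grey), nucleoporins (blue) and transport receptors (red). Of the 44 coloured points 39 lie below 0, at low and high levels alike, with KPNA2 at -1.89 the lowest and KPNA6 at 0.32 the highest.

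All 4 exportins tested fell, each with separated groups and with a median log2 difference of -0.95. XPO4, a broad-range receptor whose cargo includes a translation factor, was at 8.67, 8.95, 8.86 and 8.87 in shBrit1, against 10.26, 10.29 and 10.03 in shControl. It fell the most of the exportins, by 2.56-fold (log2 difference -1.36, SE 0.11, adjusted p = 1.07e-05). XPO5, which exports microRNA precursors, was at 8.81, 8.84, 8.88 and 8.70 in shBrit1, against 9.78, 9.76 and 9.81 in shControl (1.96-fold lower, SE 0.08 on the log2 scale, adjusted p = 1.77e-05). XPO6, the exporter of actin with profilin, was at 9.92, 10.03, 9.93 and 9.80 in shBrit1, against 10.77, 10.76 and 11.04 in shControl (1.91-fold lower, adjusted p = 8.61e-05). XPO1, the main receptor for leucine-rich export signals, ranged from 10.70 to 11.15 in shBrit1 and from 11.68 to 11.93 in shControl (1.76-fold lower, adjusted p = 0.000676). XPO7 was detected on 0 arrays and was not tested, and so was NUP210L, a relative of NUP210. XPOT and KPNA7, which the naming rule would take, had no named probe and were not assessed.

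Further matches of the naming rule were NUP62CL, a gene related to NUP62 by sequence, and the pseudogene NUP210P1. NUP62CL was at 8.64, 8.56, 8.49 and 8.62 in shBrit1, against 8.93, 8.93 and 9.28 in shControl (1.39-fold lower, adjusted p = 0.00587). NUP210P1 was near background, with 4.98 to 5.31 in shBrit1 and 4.99 to 5.15 in shControl, and was not called (adjusted p = 0.965).

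Pore genes with other names fell too. Of 9 tested, 9 were lower and 0 higher, against 30.1% lower and 29.5% higher among all genes. Their median log2 difference was -0.56. AHCTF1, which recruits the Y complex to chromatin, was at 8.37, 8.68, 8.66 and 8.57 in shBrit1, against 9.84, 9.97 and 10.20 in shControl, a 2.70-fold fall (adjusted p = 1.5e-05). The Y complex genes SEH1L and SEC13 were 1.91-fold and 1.48-fold lower, and RANBP2, of the cytoplasmic filaments, was 1.94-fold lower. Without shControl replicate 3, 8 of the 9 were lower, against 34.9% of all genes.

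Of 8 genes of the Ran cycle and other carriers, 4 were lower and 0 higher, against 30.1% lower and 29.5% higher among all genes. CSE1L, the exportin that returns importin alpha to the cytoplasm, was at 11.41, 11.58, 11.44 and 11.47 in shBrit1, against 12.88, 12.83 and 12.70 in shControl, a 2.52-fold fall (adjusted p = 4.52e-06). RANGAP1, which makes Ran hydrolyse GTP, fell 2.02-fold and the Ran cofactor gene RANBP3 fell 1.47-fold. RAN itself was at 9.83 to 10.00 in shBrit1 and at 11.24, 11.05 and 10.23 in shControl. It fell 1.88-fold (adjusted p = 0.00615), and 2.31-fold without the low control replicate 3. RANBP1, which helps to dismantle export complexes and was singled out here after its values were seen, was at 10.43, 9.94, 10.02 and 10.01 in shBrit1, against 11.92, 11.90 and 9.85 in shControl. On shControl replicate 3 it was as low as in shBrit1, and it was not called on all arrays (log2 difference -1.12, SE 0.45, adjusted p = 0.0645). Without that array it was 3.51-fold lower (adjusted p = 2.9e-07), and 6 of the 8 genes were lower and 1 higher. Among all genes 34.9% were then lower and 34.4% higher.

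Of 12 messenger RNA export genes 8 were lower and 2 higher, against 30.1% lower and 29.5% higher among all genes. Their median log2 difference was -0.37. NXT1, a cofactor of the main messenger RNA export receptor, fell 2.41-fold (adjusted p = 9.72e-06). The helicase gene DDX19A fell 2.18-fold and THOC1, of the complex that loads export factors, fell 1.67-fold. THOC6, of the same complex, was at 9.32, 9.13, 9.08 and 9.19 in shBrit1, against 8.34, 8.32 and 7.81 in shControl, and so rose 2.03-fold (adjusted p = 0.000309).

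Genes of cell division moved with the family. Of 22 such genes 21 were lower and 0 higher, against 30.1% lower and 29.5% higher among all genes. Their median log2 difference was -1.57. The lowest p-values were those of AURKA, PCNA, TTK and MCM6, which were 3.06-fold, 3.48-fold, 2.95-fold and 7.42-fold lower. On shControl replicate 3 the median of these genes stood at -0.33 against the other controls, beside -0.36 for the Y complex and 0.06 for the inner ring. The part of cell division in the results for pore and transport genes was not tested. In these bulk samples fewer cells of a kind and less RNA per cell cannot be told apart.

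**Figure D5:**
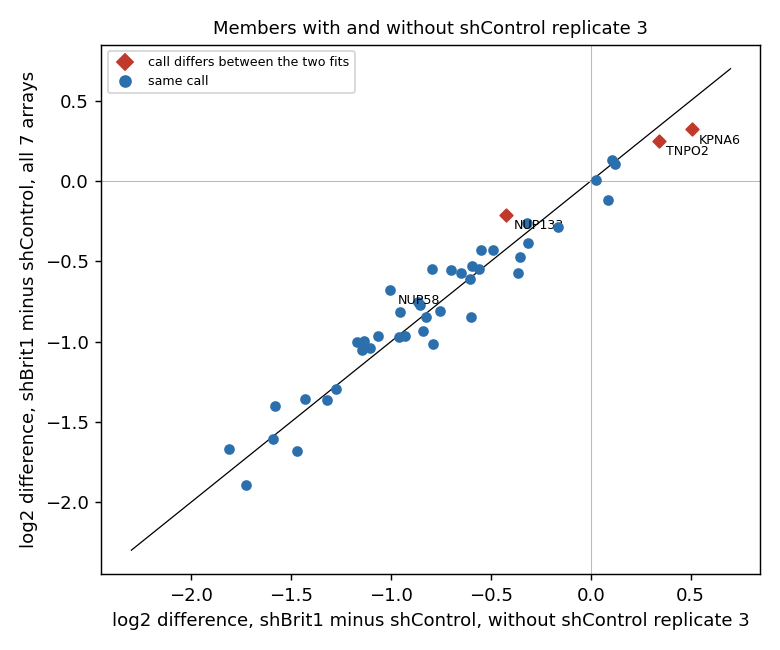
Log2 difference between shBrit1 and shControl with all 7 arrays (y axis) against that without shControl replicate 3 (x axis), one point per tested gene, with the line of equality. Red diamonds mark KPNA6, TNPO2 and NUP133, whose call differs, and NUP58 lies well to the left of the line, lower by 2.00-fold without the array and by 1.60-fold with it.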

How the data were processed

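Total RNA of 4 shBrit1 and 3 shControl cultures was labelled with biotin as cRNA and hybridised to bead arrays, per the labels' protocols. The authors deposited a linear intensity and a detection p-value per probe and array, per the file headers, with no normalization between arrays, and no source used here names the scanner software. The authors' deposited log2 values, an alternative here, have a median of 6.37 on every array and follow the signal in direction; genes were not centred, and the tool is unnamed. Of 48701 probes 24782 had 1 gene symbol in the platform annotation, 0 had several and the rest are unnamed here; matching to RefSeq changed 0 symbols. One line without values was left out.

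Intensities were corrected and normalized with neqc (limma 3.58.1, R 4.3.3, offset 16). Probes passing the detection limit of 0.05 on 3 or more arrays were fitted with lmFit and eBayes and adjusted by Benjamini-Hochberg over 17967 probes. The brightest probe stood for a gene. The fit was tested on simulated data. Members, lists and tests were chosen with earlier results of these data known. In each role group the 3 called genes with the lowest p-value are given in full, genes not called by their values, and of other lists up to 4 genes. The number of arrays limits the precision, and p-values weigh each group difference against the spread between these cultures only.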

Additional observations from a re-analysis of the deposited data

Results flagged for a closer look

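Among the 44 tested genes, 2 had a shBrit1 array far from the other 3, the gap to the nearest array taking up most of the group's range (Dixon's 95% limit). Chance gives such a gap in about 1 of 20 groups. Both gaps were on shBrit1 replicate 1. Over the 44 genes its log2 levels differed from those of the other shBrit1 arrays with SDs of 0.196 to 0.217. Among the other shBrit1 arrays the SDs were 0.121 to 0.131. The cause was not tested. NUP133 was at 9.22 on shBrit1 replicate 1 and at 9.56 to 9.58 on the other shBrit1 arrays. IPO4 was at 9.76 on shBrit1 replicate 1 and at 9.89 to 9.90 on the others, all below the shControl arrays.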

How the results depend on the processing

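The count of lower genes in the family stayed between 33 and 38 under each of the 17 alternatives. The authors' deposited log2 values and no background correction gave the same counts, so they are not separate checks. With either, 36 genes of the family were lower and 1 higher, and over all genes 3712 were lower and 3690 higher. One gene was called higher with no background correction, with normexp at an offset of 50, with the authors' deposited log2 values and with an intensity trend (1 in each, TNPO2), and 0 to 2 were when single arrays were left out. The median log2 difference was -0.53 with no background correction and with the authors' values, -0.55 with normexp at an offset of 50, -0.94 with median scaling, -0.72 with no filter on dim probes, -0.72 with the lowest-mean probe per gene, and -0.79 to -0.69 with single arrays left out. Direction turned with median scaling in IPO7 (-0.10), TNPO2 (-0.0648) and NUP210P1 (-0.0164), none of them called. With single arrays left out NUP210P1 ran from -0.0653 to 0.0459 and TNPO1 from -0.226 to 0.0859. Median scaling called TNPO1 and TNPO3 lower. Of 746 values of single genes 704 kept direction and side of the threshold, and the cause of the others was not tested. Lost calls were those of IPO5, NUP58 and KPNB1 under several alternatives, and of NUP43 and NUP50 with their dimmer probes. Deviations of arrays with the same replicate number correlated at 0.0976, 0.0119 and 0.0788, so the numbers were not treated as pairs; with the replicate block, over replicates 1 to 3, 34 genes were lower and 0 higher. Limits are the 7 arrays, the single cell line and the compression of dim probes near background.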
